A study of Homo sapiens with 18 samples.

Results

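The 10 genes described here are transcriptional targets of the YAP/TEAD complex and regulators of the Hippo pathway: ANKRD1, CCN1, CCN2, AMOTL2, AJUBA, LATS1, LATS2, WWTR1, TEAD1 and TEAD4. They were taken by symbol from a table of 41120 gene symbols, and all 10 were among the 12291 genes that passed the filter on low counts. ANKRD1 and AJUBA were selected on their counts, present in SCC154 and absent in FaDu, so their contrast between the lines is a description and was not tested. Counts of 3′ mRNA tags had been made in 18 libraries from 2 established human lines of head and neck squamous cell carcinoma: SCC154, which carries human papillomavirus (HPV), and FaDu, which does not. HPV status and line are therefore the same variable. Both lines carried a hypoxia-fate-mapping reporter, with which cells that have met low oxygen turn from red (DsRed) to green (GFP) fluorescence. They were grown as spheroids in ultra-low attachment plates, dissociated with trypsin, sorted by colour, and then cultured and passaged in normal oxygen before RNA was extracted. The groups were post-hypoxic (GFP-positive) SCC154 cells with 4 libraries, non-hypoxic (DsRed-positive) SCC154 cells with 5, post-hypoxic FaDu cells with 5 and non-hypoxic FaDu cells with 4. The post-hypoxic fraction was thus measured after a return to normal oxygen, not during hypoxia.

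In the Hippo pathway, the kinases MST1 and MST2 (genes STK4 and STK3) activate LATS1 and LATS2, which phosphorylate the coactivators YAP (YAP1) and TAZ (WWTR1) and keep them out of the nucleus. Unphosphorylated YAP and TAZ enter the nucleus, bind the TEAD transcription factors and switch on genes such as CCN1, CCN2, ANKRD1 and AMOTL2. Proteins of cell junctions, among them the LIM-domain protein AJUBA and the angiomotins, act on LATS and YAP, and LATS2 and AMOTL2 are themselves YAP targets that feed back on the pathway. Pathway activity is set largely by phosphorylation and location of the proteins, which a transcript count does not measure.

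The 250 bases before the start of a gene were read from RefSeq (GRCh38.p14) for the 7 genes with an entry; CCN1, TEAD1 and TEAD4 are named only. The promoters of CCN2 and ANKRD1 are printed because both genes are textbook TEAD targets that were near or at 0 in FaDu. Capitals mark GGAATG, a core motif of TEAD, on the strand of the gene. CCN2 lies at chr6:131951373-131951622 and ANKRD1 at chr10:90921088-90921337, both on the minus strand.
CCN2: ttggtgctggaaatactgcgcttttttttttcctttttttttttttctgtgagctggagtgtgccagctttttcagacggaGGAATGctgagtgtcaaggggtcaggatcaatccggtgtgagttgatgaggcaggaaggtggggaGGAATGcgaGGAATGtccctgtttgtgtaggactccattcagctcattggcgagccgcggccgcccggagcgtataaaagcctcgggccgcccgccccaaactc
ANKRD1: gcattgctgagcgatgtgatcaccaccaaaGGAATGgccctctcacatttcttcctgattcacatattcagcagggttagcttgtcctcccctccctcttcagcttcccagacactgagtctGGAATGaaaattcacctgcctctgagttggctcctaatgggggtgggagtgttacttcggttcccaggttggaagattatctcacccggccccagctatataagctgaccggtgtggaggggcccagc

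The CCN2 window held 3 such sites, which began 169, 104 and 95 bases before the start. The ANKRD1 window held 2, at 220 and 128 bases. Between them, at 195 bases, was 1 match to TGANTCA, a loose pattern for AP-1 motifs that takes any base in the middle. It read tgattca there. GGAATG and its reverse complement CATTCC were searched on both strands, and TGANTCA is its own reverse complement. Of 35116 promoter windows of the same length, 11.9% held GGAATG at least once, 0.940% at least 2 times and 0.0826% at least 3 times, and 6.57% held TGANTCA. The windows of AJUBA, AMOTL2, LATS1, LATS2 and WWTR1 held neither motif. Those of WWTR1 (chr3:149703274-149703523) and LATS1 (chr6:149716426-149716675) lay inside the genes as placed by GENCODE v29. The bases before the GENCODE starts of WWTR1 and LATS1 were not searched. The windows of ANKRD1, AJUBA and AMOTL2 lay in part inside their GENCODE genes. The GENCODE start of ANKRD1, at 90921276 on the minus strand, fell within its window. A match is a run of letters, not a binding event, and no binding was measured.

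**Figure D1:**
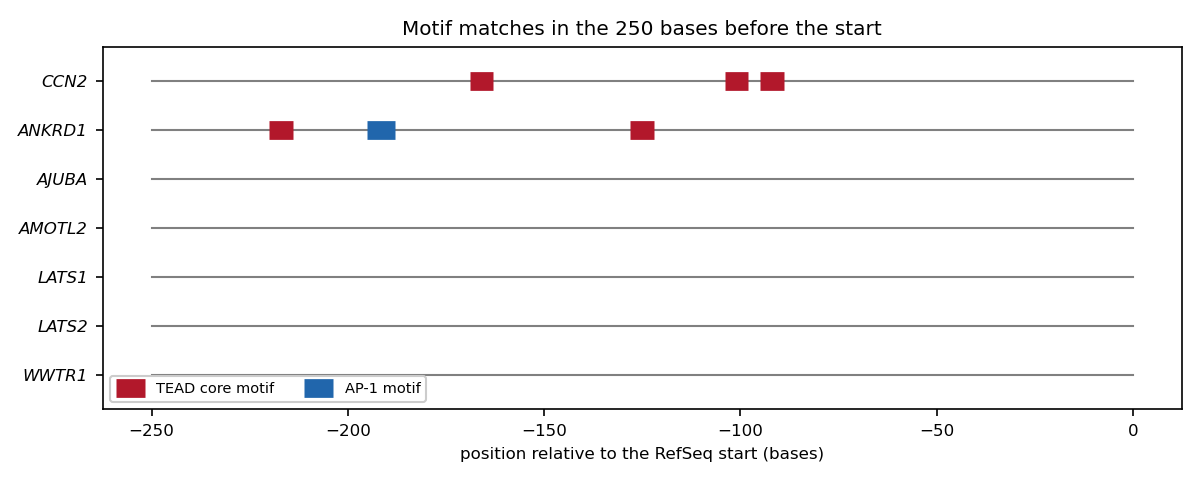
Matches of the TEAD core motif (red) and the loose AP-1 pattern TGANTCA (blue) in the 250 bases before the RefSeq start, on the horizontal axis in bases, for the 7 genes with a promoter entry. CCN2 has 3 TEAD matches, ANKRD1 has 2 and 1 match of the AP-1 pattern (tgattca), and the other 5 genes have none.

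Library totals ran from 1654719 to 2503573 counts. Values are listed by replicate number, which runs from 2 to 5 in post-hypoxic SCC154 cells and starts at 1 in the other groups. Levels are given as CPM, tag counts relative to library sizes that were scaled by trimmed mean of M-values (TMM), and since a 3′ tag is read once per transcript, they do not grow with transcript length. The labels do not say whether replicates of a group came from separate cultures or sorts, and the p-values therefore cover the spread between these samples alone, which may be technical. The 8 squamous epithelial markers, among them TP63 and EPCAM, were all detected and summed to between 1652 and 2337 CPM in every library. Of the fibroblast, endothelial and immune markers none passed the filter, and each of these lists summed to at most 5.80 CPM. In SCC154 the fibroblast list summed to 1.82 to 3.69 CPM in post-hypoxic and 3.90 to 5.80 CPM in non-hypoxic cells, and the immune list to 2.72 to 3.58 CPM and 0 to 1.97 CPM. COL1A1 made up nearly all of the fibroblast sum, with a mean of 2.83 CPM in post-hypoxic and 4.35 CPM in non-hypoxic SCC154 cells, and the other 5 genes of that list had 0 or 1 count over all libraries. CD68 (1.92 CPM in post-hypoxic and 0.272 CPM in non-hypoxic SCC154 cells) and CD14 (0.991 and 0.498 CPM) made up nearly all of the immune sum, in which PTPRC, CD3E and LYZ had 0 or 1 count each, and CDH5 (3.31 and 3.50 CPM) the endothelial one. The part of these in the results was not tested. Some libraries stood apart within their group. The first principal component of the deviations from the group means took 34.4% of the variance in FaDu, with loadings of -0.46 to -0.21 for replicates 3 and 4 of both fractions and 0.07 to 0.55 for the other libraries. In SCC154 it took 33.8%, with post-hypoxic replicates 3 (0.64) and 4 (-0.54) at its ends. In bulk RNA, fewer cells that express a gene and less RNA per cell cannot be told apart.

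**Figure D2:**
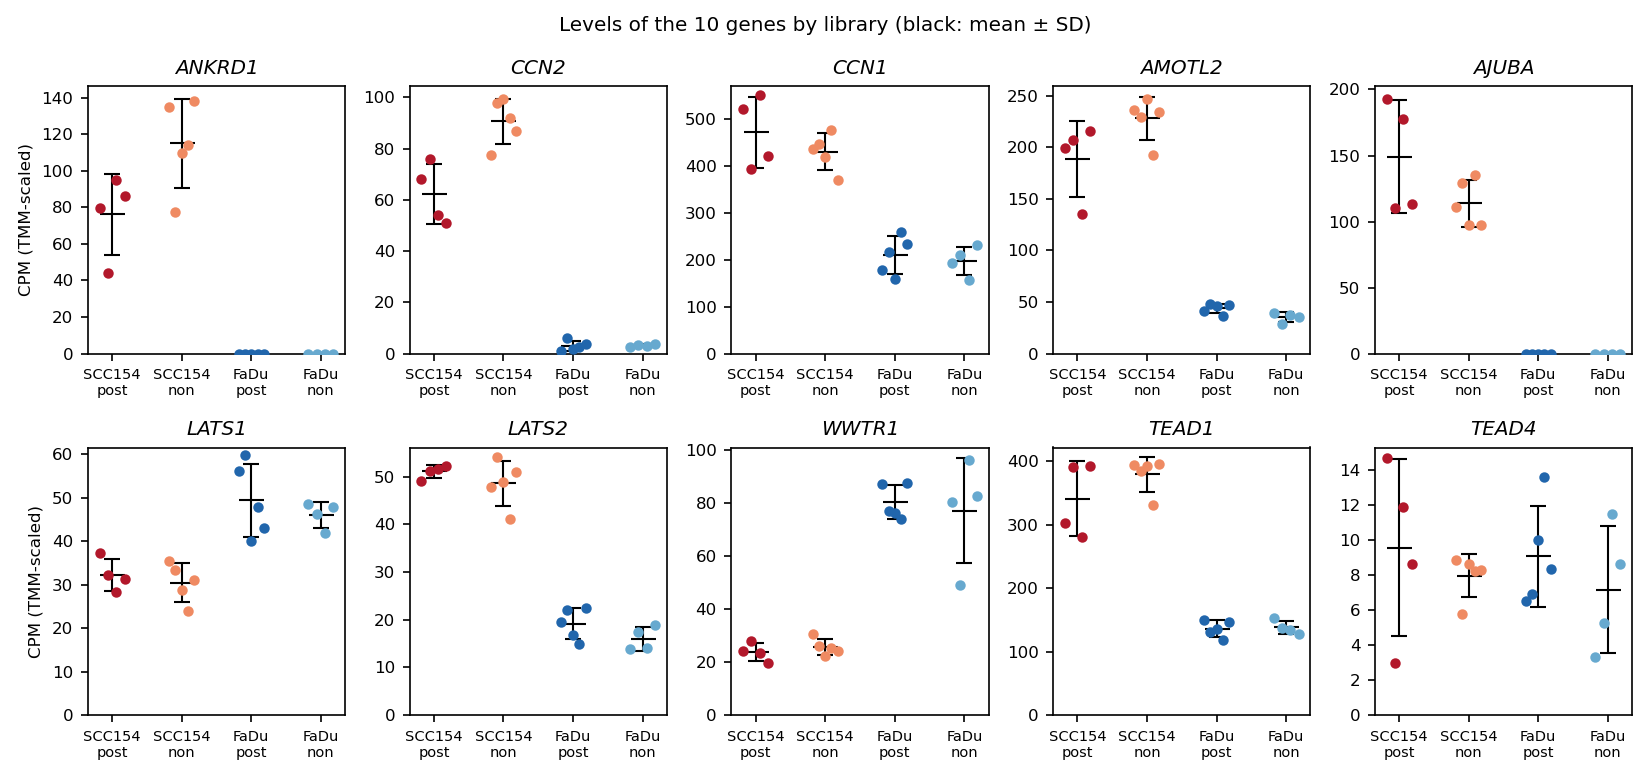
CPM of the 10 genes in each of the 18 libraries (points), with the mean and SD of each group in black; the vertical axis starts at 0 and differs between panels. ANKRD1 and AJUBA lie at 0 in all 9 FaDu libraries, CCN2, CCN1, AMOTL2, LATS2 and TEAD1 lie higher in SCC154, and LATS1 and WWTR1 lie lower in SCC154.

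Of the 8 genes whose contrast between the lines was tested, 7 differed between SCC154 and FaDu in both fractions. CCN1, CCN2, AMOTL2, LATS2 and TEAD1 were higher in SCC154, LATS1 and WWTR1 were lower, and TEAD4 did not pass. Between the lines most genes differ: in post-hypoxic cells 69.7% of all 12291 genes were called at an adjusted p of 0.05 (34.8% higher and 34.9% lower in SCC154), and in non-hypoxic cells 68.9% (34.5% in each direction). The 7 calls are therefore read by their size, not by their number. Over all genes the interquartile range of the log2 fold change was -0.70 to 0.80 in post-hypoxic and -0.68 to 0.78 in non-hypoxic cells. LATS1, at -0.61 and -0.60, lay within it. All tests were quasi-likelihood tests in edgeR, with p-values adjusted by Benjamini-Hochberg over all genes tested. These 7 calls held in all 29 further settings tried in either fraction, which include leaving out each library and either pair of FaDu replicates (1 and 2, or 3 and 4).

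CCN2 encodes connective tissue growth factor, a secreted matricellular protein and the YAP target most often read out, at chr6:131948176-131951373 (GRCh38, minus strand). It had 67.99, 75.8, 54.1 and 50.8 CPM in post-hypoxic SCC154 cells and 77.5, 97.6, 99.5, 91.95 and 86.7 CPM in non-hypoxic SCC154 cells. In FaDu it had 1.09, 5.98, 1.82, 2.48 and 3.52 CPM in post-hypoxic cells and 2.38, 3.48, 2.99 and 3.77 CPM in non-hypoxic cells, from 2 to 13 counts a library. Every SCC154 library thus lay above every FaDu library. The log2 fold change of SCC154 over FaDu was 4.33 (SE 0.23, adjusted p = 1.37e-13), or 20.1-fold, in post-hypoxic cells and 4.82 (SE 0.25, adjusted p = 5.18e-14), or 28.3-fold, in non-hypoxic cells. No other tested gene of the 10 differed as much between the lines.

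CCN1 (CYR61, chr1:85580761-85583962, plus strand) encodes a paralogue of CCN2, another secreted matricellular protein. Its level was 521, 392, 550.2 and 421 CPM in post-hypoxic SCC154 cells and 436, 447, 418, 477 and 370.3 CPM in non-hypoxic SCC154 cells. It was 178, 216, 159, 258 and 234 CPM in post-hypoxic FaDu cells and 193, 209, 157 and 230.2 CPM in non-hypoxic FaDu cells. The lines did not overlap here either, but CCN1 was well expressed in FaDu, where CCN2 was nearly absent. CCN1 was 2.25-fold higher in SCC154 among post-hypoxic cells (log2 1.17, SE 0.14, adjusted p = 5.87e-08) and 2.18-fold among non-hypoxic cells (log2 1.12, SE 0.14, adjusted p = 1.97e-07).

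ANKRD1 (chr10:90912096-90921276, minus strand) encodes an ankyrin-repeat protein of the nucleus and, in muscle, of the sarcomere. It had 79.5, 44.2, 94.7 and 86.2 CPM in post-hypoxic SCC154 cells and 135, 77.3, 109.8, 114 and 138 CPM in non-hypoxic SCC154 cells. All 9 FaDu libraries had 0 counts. With a floor of 3 counts over a group, which covers counting error only, its level was at least 276-fold higher in SCC154 among post-hypoxic cells and at least 316-fold higher among non-hypoxic cells. The nearest tested genes on either side, found after the values were seen, were counted in both lines: RPP30 at 31.6 CPM in SCC154 and 43.4 CPM in FaDu, and PCGF5 at 28.5 CPM in SCC154 and 36.2 CPM in FaDu.

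AMOTL2 (chr3:134355874-134375479, minus strand) encodes angiomotin-like 2, which binds YAP and holds it at junctions, and is itself a target. It had 199, 207, 135 and 216 CPM in post-hypoxic SCC154 cells and 236, 229, 247, 193 and 234 CPM in non-hypoxic SCC154 cells. It had 40.9, 47.9, 46.3, 36.7 and 46.6 CPM in post-hypoxic FaDu cells and 39.5, 28.7, 37.4 and 35.6 CPM in non-hypoxic FaDu cells. The lowest SCC154 library was above the highest FaDu library. AMOTL2 was 4.32-fold higher in SCC154 among post-hypoxic cells (log2 2.11, SE 0.13, adjusted p = 2.31e-12) and 6.45-fold among non-hypoxic cells (log2 2.69, SE 0.14, adjusted p = 1.42e-13). The 3′ end of AMOTL2 is covered by the pseudogene RPL39P5, which had 0 counts in all libraries.

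AJUBA (chr14:22971174-22982642, minus strand) encodes a LIM-domain protein of adherens junctions that binds and restrains LATS kinases. It had 193, 110.4, 178 and 113 CPM in post-hypoxic SCC154 cells and 111, 129.5, 97.2, 135 and 97.4 CPM in non-hypoxic SCC154 cells. It too had 0 counts in all 9 FaDu libraries, so that its level was at least 540-fold higher in SCC154 among post-hypoxic cells and at least 314-fold higher among non-hypoxic cells. Its nearest tested neighbours, chosen after the values were seen, had counts in both lines, C14orf93 at 7.61 CPM in SCC154 and 3.32 CPM in FaDu and HAUS4 at 6.09 CPM in SCC154 and 3.90 CPM in FaDu. In GENCODE v29 the 3′ end of AJUBA lies inside a second gene of the same strand, AL132780.3, for which no row was used, and the sources used here do not give how reads in such overlaps were counted. The 0 of AJUBA in FaDu is a count under that unstated rule.

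The 2 LATS kinases differed between the lines in opposite directions. LATS2 (chr13:20973032-21061547, minus strand), which is also a YAP target, had 49.1, 51.3, 51.7 and 52.2 CPM in post-hypoxic SCC154 cells and 47.9, 54.1, 48.9, 41.2 and 51.0 CPM in non-hypoxic SCC154 cells. It had 19.6, 22.1, 16.8, 14.9 and 22.4 CPM in post-hypoxic FaDu cells and 13.8, 17.4, 13.98 and 18.9 CPM in non-hypoxic FaDu cells. LATS2 was 2.67-fold higher in SCC154 among post-hypoxic cells (log2 1.41, SE 0.14, adjusted p = 5.67e-09) and 3.03-fold among non-hypoxic cells (log2 1.60, SE 0.15, adjusted p = 2.26e-09). LATS1 (chr6:149658153-149718256, minus strand) averaged 32.3 ± 3.73 CPM in post-hypoxic SCC154 cells (SD, n = 4) and 30.5 ± 4.50 CPM in non-hypoxic SCC154 cells (SD, n = 5). In FaDu it averaged 49.4 ± 8.44 CPM in post-hypoxic cells (SD, n = 5) and 46.1 ± 2.98 CPM in non-hypoxic cells (SD, n = 4). Its SCC154 libraries reached 37.3 CPM at most and its FaDu libraries 39.96 CPM at least, with a log2 fold change of -0.61 (SE 0.15, adjusted p = 0.000731) in post-hypoxic and -0.60 (SE 0.15, adjusted p = 0.000952) in non-hypoxic cells. LATS2 thus stood above LATS1 in SCC154 and below it in FaDu, without overlap in any library group.

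WWTR1 (chr3:149517235-149736714, minus strand), which encodes TAZ, was the other gene lower in SCC154. It had 24.2, 28.04, 23.4 and 19.5 CPM in post-hypoxic SCC154 cells and 30.6, 26.1, 22.4, 25.2 and 24.05 CPM in non-hypoxic SCC154 cells. It had 87.2, 76.8, 76.3, 73.9 and 87.5 CPM in post-hypoxic FaDu cells and 80.3, 49.2, 96.3 and 82.5 CPM in non-hypoxic FaDu cells. WWTR1 was 3.39-fold lower in SCC154 among post-hypoxic cells (log2 -1.76, SE 0.17, adjusted p = 2.26e-09) and 2.99-fold lower among non-hypoxic cells (log2 -1.58, SE 0.16, adjusted p = 7.92e-09). YAP1, which encodes the paralogous coactivator and lies outside the 10 genes, went the other way. It averaged 619 ± 131 CPM in post-hypoxic SCC154 cells (SD, n = 4) and 660.1 ± 34.5 CPM in non-hypoxic SCC154 cells (SD, n = 5), against 105 ± 6.19 CPM in post-hypoxic FaDu cells (SD, n = 5) and 90.8 ± 16.4 CPM in non-hypoxic FaDu cells (SD, n = 4). YAP1 was 5.88-fold higher in SCC154 among post-hypoxic cells (log2 2.56, SE 0.13, adjusted p = 2.54e-14) and 7.29-fold among non-hypoxic cells (log2 2.87, SE 0.14, adjusted p = 1.44e-14). Tags of YAP1 thus far outnumbered those of WWTR1 in SCC154, while in FaDu the ranges over 9 libraries were 75.3 to 114 CPM for YAP1 and 49.2 to 96.3 CPM for WWTR1.

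TEAD1 was the main TEAD transcript in both lines. TEAD1 (chr11:12674591-12944483, plus strand) ranged from 281 to 396 CPM over the 9 SCC154 libraries and from 118 to 153 CPM over the 9 FaDu libraries. It was 2.51-fold higher in SCC154 among post-hypoxic cells (log2 1.33, SE 0.11, adjusted p = 2.10e-10) and 2.75-fold among non-hypoxic cells (log2 1.46, SE 0.11, adjusted p = 7.92e-11). TEAD4 (chr12:2959330-3040673, plus strand) was the scarcest of the 10 in SCC154, with 2.98 to 14.7 CPM there and 3.33 to 13.6 CPM in FaDu, from 5 to 36 counts a library. Its log2 fold change of SCC154 over FaDu was 0.11 (95% interval -0.59 to 0.81, adjusted p = 0.776) in post-hypoxic and 0.17 (95% interval -0.60 to 0.94, adjusted p = 0.690) in non-hypoxic cells, which leaves room for a difference in either direction. Of the other TEAD genes, TEAD2 was lower in SCC154 in both fractions (log2 -0.71, adjusted p = 0.0107, in post-hypoxic and -0.55, adjusted p = 0.0393, in non-hypoxic cells). The lines overlapped in both fractions for TEAD2. It ran from 12.5 to 26.9 CPM over the 9 SCC154 libraries and from 16.9 to 49.6 CPM over the 9 FaDu libraries. Its -0.55 lay within the interquartile range of all genes in non-hypoxic cells (-0.68 to 0.78). Its -0.71 lay at the edge of that in post-hypoxic cells (-0.70 to 0.80). TEAD3 did not pass (log2 -0.28, adjusted p = 0.204, and 0.14, adjusted p = 0.528).

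By mean level in non-hypoxic SCC154 cells the order was CCN1 (429.8 CPM), TEAD1 (379), AMOTL2 (228), ANKRD1 (115), AJUBA (114), CCN2 (90.6), LATS2 (48.6), LATS1 (30.5), WWTR1 (25.7) and TEAD4 (7.97). In that order CCN1 and TEAD1, ANKRD1 and AJUBA, AJUBA and CCN2, and LATS1 and WWTR1 overlapped between their libraries. In non-hypoxic FaDu cells the order was CCN1 (197 CPM), TEAD1 (138), WWTR1 (77.1), LATS1 (46.1), AMOTL2 (35.3), LATS2 (16.01), TEAD4 (7.17) and CCN2 (3.16), with ANKRD1 and AJUBA at 0. Of these neighbours only TEAD4 and CCN2 overlapped between their libraries. In these non-hypoxic cells CCN1 and TEAD1 led in both lines, and WWTR1 and LATS1 stood above AMOTL2 in FaDu and far below it in SCC154. In post-hypoxic FaDu cells LATS1 (39.96 to 59.8 CPM) and AMOTL2 (36.7 to 47.9 CPM) overlapped.

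**Figure D3:**
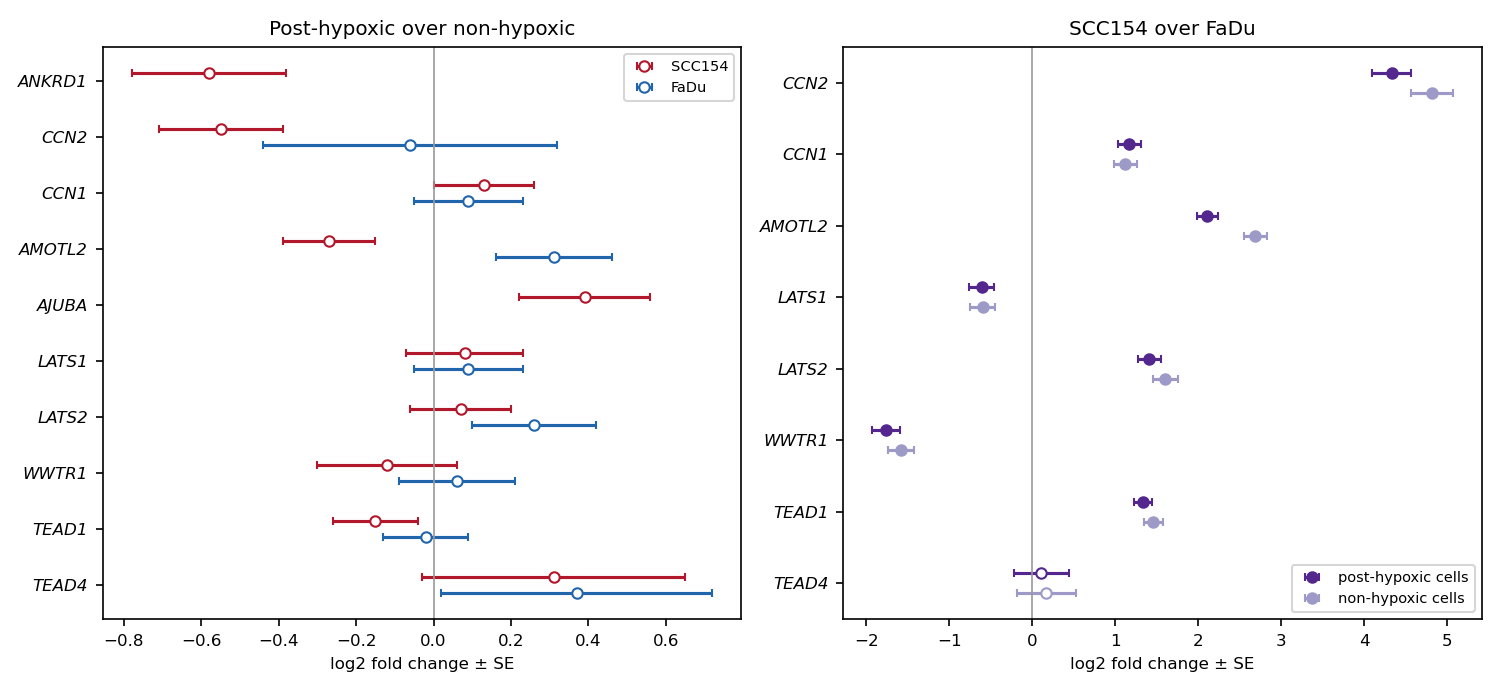
Log2 fold changes with SE from edgeR, filled where the adjusted p is under 0.05. Left, post-hypoxic over non-hypoxic cells in SCC154 (red) and FaDu (blue), where none passes; ANKRD1 and AJUBA have no FaDu value. Right, SCC154 over FaDu in post-hypoxic (dark) and non-hypoxic (light) cells for the 8 genes tested, where all but TEAD4 pass, from 4.82 for CCN2 to -1.76 for WWTR1.

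The comparison of post-hypoxic with non-hypoxic cells asked which transcripts still differed after sorting and culture in normal oxygen. In SCC154, edgeR called 0 of the 10 genes at an adjusted p of 0.05, where it called 0.757% of all genes (93 genes, of which 0.334% of all were higher and 0.423% lower). At an unadjusted p of 0.05, 4 of the 10 passed, against 15.7% of all genes: CCN2, ANKRD1 and AMOTL2, with lower values in post-hypoxic cells, and AJUBA, with higher values. DESeq2 and limma voom called 1 of the 10 each, CCN2. An edgeR fit with a block for replicate number within each line called 3, CCN2, ANKRD1 and AJUBA. The labels do not say whether replicate numbers pair the samples.

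CCN2 averaged 62.2 ± 11.7 CPM in post-hypoxic SCC154 cells (SD, n = 4) and 90.6 ± 8.90 CPM in non-hypoxic SCC154 cells (SD, n = 5). All 4 post-hypoxic libraries, at most 75.8 CPM, were below all 5 non-hypoxic libraries, at least 77.5 CPM. The log2 fold change was -0.55 (SE 0.16, adjusted p = 0.104 by edgeR), so that it did not pass. The adjusted p was 0.0409 with DESeq2 and 0.0494 with limma voom, and the call also changed between edgeR fits of another design. Over the 12 settings other than leaving out 1 library it ran from 0.00165 to 0.133, and over the fits that left out 1 library from 0.0542 to 0.338.

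ANKRD1 averaged 76.1 ± 22.2 CPM in post-hypoxic SCC154 cells (SD, n = 4) and 115 ± 24.4 CPM in non-hypoxic SCC154 cells (SD, n = 5), a log2 fold change of -0.58 (SE 0.20, adjusted p = 0.174 by edgeR). The groups overlapped, since non-hypoxic replicate 2 had 77.3 CPM and 3 of the 4 post-hypoxic libraries lay above it. Without post-hypoxic replicate 3, at 44.2 CPM the lowest, it was -0.40 (adjusted p = 0.211), and without that library and non-hypoxic replicate 1 it was -0.34 (adjusted p = 0.335). With no filter on low counts the adjusted p was 0.0335. Over the settings other than leaving out 1 library it ran from 0.0280 (edgeR with a replicate block within each line) to 0.335. AJUBA averaged 149 ± 42.9 CPM in post-hypoxic SCC154 cells (SD, n = 4) and 114 ± 17.8 CPM in non-hypoxic SCC154 cells (SD, n = 5), a log2 fold change of 0.39 (SE 0.17, adjusted p = 0.299 by edgeR). Post-hypoxic replicates 2 and 4 were above every non-hypoxic library and the other 2 were within their range; without replicate 2 the log2 fold change was 0.23 (adjusted p = 0.670). Among same-numbered SCC154 libraries AJUBA was higher in the post-hypoxic one each time, though the labels do not say that numbers pair. Its adjusted p ran from 0.0258 (edgeR with a replicate block within each line) to 0.341 over the settings other than leaving out 1 library. It ran from 0.131 to 0.670 over those that did.

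AMOTL2 had a log2 fold change of -0.27 (SE 0.12, adjusted p = 0.300 by edgeR) in SCC154, and without post-hypoxic replicate 4, at 135 CPM the lowest, of -0.12 (adjusted p = 0.766). The remaining 6 genes had log2 fold changes in SCC154 from -0.15 (TEAD1) to 0.31 (TEAD4), each with a 95% interval that held 0. The median over the 10 genes was -0.02, against 0.00 over all genes tested. CCN1 had 0.13 (95% interval -0.15 to 0.42, adjusted p = 0.662), an interval that does not reach the -0.55 of its paralogue CCN2. For LATS2 the interval was -0.21 to 0.35 and for LATS1 -0.24 to 0.41. TEAD4 rested on few counts: its value was 0.31 (95% interval -0.41 to 1.04), and 0.04 without post-hypoxic replicate 2.

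In FaDu, 0 of the 8 tested genes passed by edgeR in post-hypoxic over non-hypoxic cells, where 0% of all genes did, and 0 passed an unadjusted p of 0.05, against 298 genes or 2.42% of all. DESeq2 and limma voom also called 0 of the 8. Samples of FaDu with the same replicate number deviated together, and with a replicate block within each line 7 genes of the table passed in FaDu and 0 of the 8. AMOTL2 averaged 43.7 ± 4.72 CPM in post-hypoxic FaDu cells (SD, n = 5) and 35.3 ± 4.65 CPM in non-hypoxic FaDu cells (SD, n = 4), with 4 of 5 post-hypoxic libraries above all non-hypoxic ones and a log2 fold change of 0.31 (SE 0.15, adjusted p = 1.00 by edgeR). The median over the 8 genes was 0.09, against -0.00 over all genes. CCN2, with 1.09 to 5.98 CPM in post-hypoxic cells, had a value of -0.06 with a 95% interval from -0.87 to 0.75, so that a change of the size seen in SCC154 was not detectable at this depth in FaDu.

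The difference of these effects, SCC154 minus FaDu, was tested in the same model, and 0 of the 8 genes passed, where 0.0163% of all genes did. At an unadjusted p of 0.05, 1 of the 8 passed, AMOTL2, against 9.78% of all genes, and DESeq2 and limma voom called 0 of the 8. AMOTL2 had -0.27 in SCC154 and 0.31 in FaDu, a difference of -0.58 (SE 0.19, adjusted p = 0.337 by edgeR). The difference for CCN2 was -0.49 (SE 0.42, adjusted p = 0.724), with an interval from -1.38 to 0.40. The gap between the lines in CCN2 and AMOTL2, 4.33 and 2.11 on the log2 scale in post-hypoxic cells and 4.82 and 2.69 in non-hypoxic cells, was larger than any post-hypoxic effect of the 10 genes.

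Genes of the pathway were taken in 6 lists with 84 symbols, of which 79 were tested. The lists include the genes described above and are not independent of them. CCN1, CCN2, AMOTL2 and LATS2 count again among the higher targets below. WWTR1, TEAD1 and TEAD4 were listed with the coactivators, LATS1 and LATS2 with the kinases, and AMOTL2 and AJUBA with the junction genes. Of a list of 22 YAP/TAZ targets, 21 were tested, 1 of them ANKRD1. Of the other 20, 17 were higher and 3 lower in SCC154 than in FaDu in both fractions, so that all 20 passed by edgeR, where 34.8% of all genes were higher and 34.9% lower in post-hypoxic cells and 34.5% each way in non-hypoxic cells. The median log2 fold change was 1.54 in post-hypoxic and 1.83 in non-hypoxic cells, against 0.01 and -0.01 over all genes, and it was the same with genes of at most 3 counts in a group set to their bound. IGFBP3, a secreted binding protein of insulin-like growth factors, averaged 923 ± 271 CPM in post-hypoxic SCC154 cells (SD, n = 4) and 713 ± 70.1 CPM in non-hypoxic SCC154 cells (SD, n = 5), against 13.3 ± 5.40 CPM in post-hypoxic FaDu cells (SD, n = 5) and 13.2 ± 5.21 CPM in non-hypoxic FaDu cells (SD, n = 4). CCDC80, a matrix protein, had a log2 fold change of 3.42 (SE 0.14, adjusted p = 1.76e-15) in post-hypoxic and 2.82 (SE 0.15, adjusted p = 1.11e-13) in non-hypoxic cells. TGFB2, which encodes a ligand of the TGF-beta family, averaged 12.6 ± 5.31 CPM in post-hypoxic SCC154 cells (SD, n = 4) and 24.97 ± 3.81 CPM in non-hypoxic SCC154 cells (SD, n = 5), against 0.712 ± 0.512 CPM in post-hypoxic FaDu cells (SD, n = 5) and 1 count in all 4 non-hypoxic FaDu libraries. The 3 lower genes were FJX1, the homologue of Drosophila four-jointed, NT5E, which encodes the ectonucleotidase CD73, and the kinase gene NUAK2. FJX1 averaged 3.07 ± 1.04 CPM in post-hypoxic SCC154 cells (SD, n = 4) and 3.47 ± 1.59 CPM in non-hypoxic SCC154 cells (SD, n = 5), against 25.4 ± 1.38 CPM in post-hypoxic FaDu cells (SD, n = 5) and 23.2 ± 5.86 CPM in non-hypoxic FaDu cells (SD, n = 4). These 3 were named after their values were seen.

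Coactivators, TEADs and VGLL cofactors split evenly: of 8 tested, 3 were higher (VGLL3, YAP1, TEAD1) and 3 lower (WWTR1, TEAD2, VGLL4) in SCC154 in both fractions. Over all genes, 69.7% were called in either direction in post-hypoxic and 68.9% in non-hypoxic cells. VGLL3, a TEAD cofactor of the vestigial-like family, averaged 79.1 ± 7.74 CPM in post-hypoxic SCC154 cells (SD, n = 4) and 71.8 ± 12.4 CPM in non-hypoxic SCC154 cells (SD, n = 5), against 1.77 ± 1.23 CPM in post-hypoxic FaDu cells (SD, n = 5) and 0.461 ± 0.357 CPM in non-hypoxic FaDu cells (SD, n = 4). VGLL4, which competes with YAP for TEAD, averaged 5.74 ± 3.78 CPM in post-hypoxic SCC154 cells (SD, n = 4) and 30.5 ± 5.41 CPM in post-hypoxic FaDu cells (SD, n = 5). Of the 17 kinases and scaffolds, 9 were higher and 4 lower in post-hypoxic SCC154 cells than in FaDu, and 11 and 3 in non-hypoxic cells, against 69.7% and 68.9% of all genes called in either direction. STK3, which encodes MST2, led them with a log2 fold change of 2.22 (SE 0.12, adjusted p = 1.97e-13) in post-hypoxic and 2.34 (SE 0.13, adjusted p = 2.38e-13) in non-hypoxic cells. RASSF1, a scaffold that binds MST kinases, had 1.98 (SE 0.19) in post-hypoxic and 2.02 (SE 0.20) in non-hypoxic cells, and FRMD6, a homologue of Drosophila Expanded, had 1.86 (SE 0.20) and 2.10 (SE 0.21). Of the KIBRA family, WWC3 had 1.57 (SE 0.12) in post-hypoxic and 1.55 (SE 0.12) in non-hypoxic cells, and WWC1 had 1.56 (SE 0.09) and 1.60 (SE 0.10). Of the 13 junction and polarity genes other than AJUBA, 9 were higher and 0 lower in post-hypoxic cells, and 10 and 1 in non-hypoxic cells. Again 69.7% and 68.9% of all genes were called in either direction, with 34.8% and 34.5% higher. Among the higher genes were the AMOTL2 paralogue AMOTL1 (log2 2.48, SE 0.09, adjusted p = 8.46e-17, in post-hypoxic cells), the protocadherin FAT1 (2.58, SE 0.15) and WTIP, which belongs to the same LIM-protein family as AJUBA (2.38, SE 0.23). The largest difference of the list was that of FAT4, another protocadherin of the FAT family, with log2 fold changes of 4.13 (SE 0.49, adjusted p = 9.14e-08) in post-hypoxic and 5.68 (SE 0.60, adjusted p = 1.54e-08) in non-hypoxic cells. FAT4 averaged 12.3 ± 4.55 CPM in post-hypoxic SCC154 cells (SD, n = 4) and 15.5 ± 5.21 CPM in non-hypoxic SCC154 cells (SD, n = 5), and in FaDu it had 7 counts over the post-hypoxic and 2 over the non-hypoxic libraries, so that its non-hypoxic fold rests on few counts. WTIP averaged 20.4 ± 2.15 CPM in post-hypoxic SCC154 cells (SD, n = 4) and 3.88 ± 1.56 CPM in post-hypoxic FaDu cells (SD, n = 5).

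Of the 11 genes of STRIPAK, the phosphatase complex that removes phosphate from MST kinases, 4 were higher and 3 lower in post-hypoxic SCC154 cells, and 2 and 4 in non-hypoxic cells, also against 69.7% and 68.9% of all genes called. The catalytic subunit PPP2CA was lower (log2 -1.05, SE 0.14, adjusted p = 5.56e-07, in post-hypoxic and -1.17, SE 0.14, adjusted p = 7.32e-08, in non-hypoxic cells). The striatin STRN4 was higher (0.88, SE 0.17, in post-hypoxic and 1.03, SE 0.18, in non-hypoxic cells), and the kinase STK26 (-0.66, SE 0.15, and -0.78, SE 0.15) and the subunit SIKE1 (-0.60, SE 0.10, and -0.70, SE 0.10) were lower. Of 11 AP-1 and immediate early genes, 7 were higher and 1 lower in post-hypoxic cells, and 6 and 1 in non-hypoxic cells, where 34.8% and 34.5% of all genes were higher. The lower one was FOSL1, at 17.2 ± 5.05 CPM in post-hypoxic SCC154 cells (SD, n = 4) and 18.8 ± 3.13 CPM in non-hypoxic SCC154 cells (SD, n = 5), against 105 ± 23.6 CPM in post-hypoxic FaDu cells (SD, n = 5) and 114 ± 38.7 CPM in non-hypoxic FaDu cells (SD, n = 4). JUND was higher (log2 1.83, SE 0.17, adjusted p = 1.10e-09, in post-hypoxic cells), as were the AP-1 family genes ATF3 (1.25, SE 0.36, in post-hypoxic and 1.86, SE 0.36, in non-hypoxic cells) and FOSL2 (1.52, SE 0.16, and 1.22, SE 0.17). DUSP1, which encodes a phosphatase of MAP kinases, was also higher in both fractions (1.39, SE 0.25, in non-hypoxic cells).

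**Figure D4:**
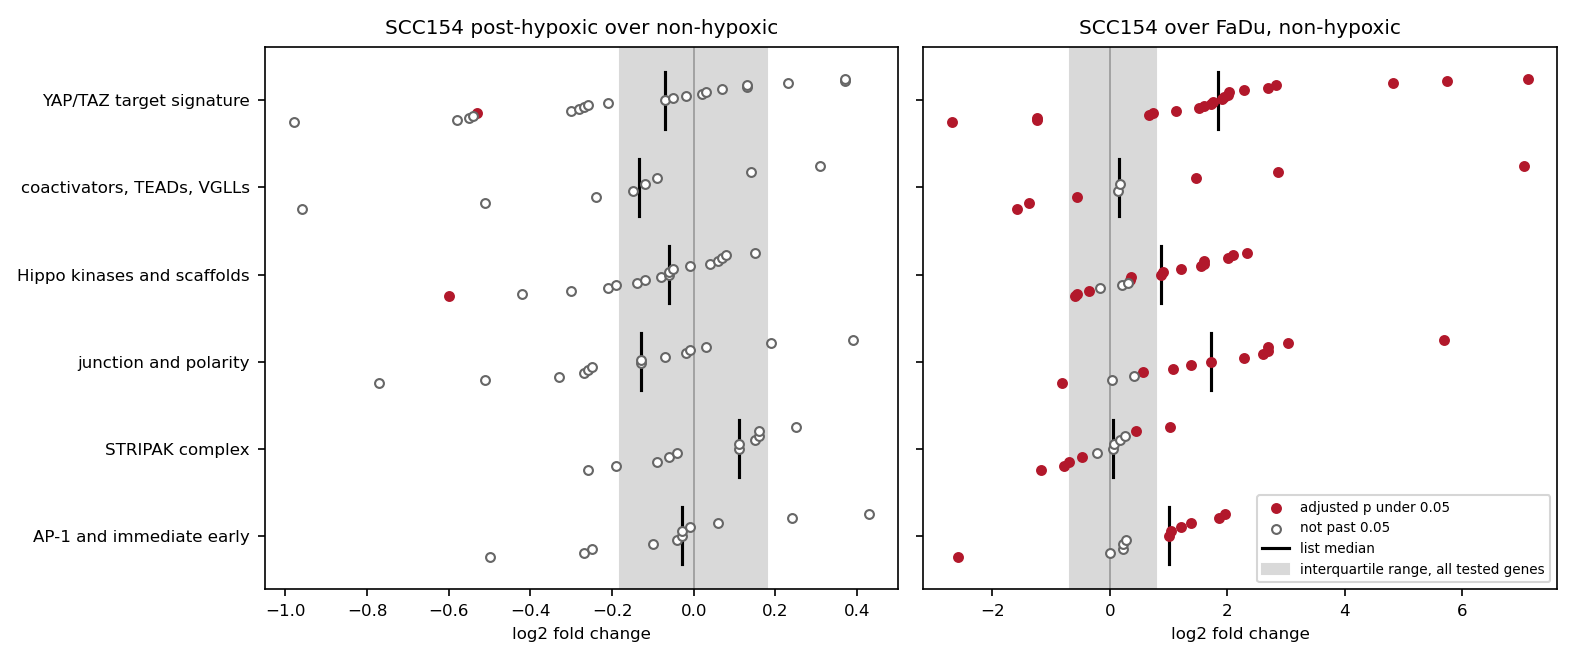
Log2 fold changes of the 6 pathway lists, each point a gene (filled where the adjusted p is under 0.05), with the list median as a black bar and the interquartile range of all tested genes in grey. Left, post-hypoxic over non-hypoxic SCC154 cells, where MYOF and WWC2 pass; right, SCC154 over FaDu in non-hypoxic cells, where the YAP/TAZ targets have a median of 1.83.

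Between post-hypoxic and non-hypoxic SCC154 cells, 2 of the 79 list genes passed by edgeR, both lower, where 0.757% of all genes passed. MYOF, a target that encodes the membrane repair protein myoferlin, had 271, 310.3, 205 and 297 CPM in post-hypoxic and 366, 399, 424, 375 and 381 CPM in non-hypoxic cells, without overlap (log2 -0.53, SE 0.11, adjusted p = 0.0248). WWC2, a KIBRA-family scaffold of the LATS kinases, had 96.7, 133, 91.4 and 140.2 CPM in post-hypoxic and 186, 174, 186, 169.6 and 158 CPM in non-hypoxic cells, also without overlap (log2 -0.60, SE 0.12, adjusted p = 0.0248). Both calls ended without SCC154 post-hypoxic replicate 2 (adjusted p = 0.0823 for MYOF and 0.122 for WWC2) or 4 (0.104 and 0.124), and without non-hypoxic replicate 2 (0.0538 for both) or 3 (0.0638 and 0.0589). That of MYOF also ended without non-hypoxic replicate 5 (0.0629), that of WWC2 without FaDu replicates 3 and 4 (0.0551), and both when only the SCC154 libraries were fitted (0.0961 for both). The median over the 21 targets was -0.07, against 0.00 over all genes, with 8 above 0 and 13 below. At an unadjusted p of 0.05 by edgeR, 8 of these 21 passed in SCC154, against 15.7% of all genes. MYOF, AMOTL2, CCN2, ANKRD1, GADD45A, DOCK5 and TGFB2 had lower values in post-hypoxic cells, and CCDC80 had higher ones. CCN2, ANKRD1 and AMOTL2 were already counted among the 10 genes. TEAD3 had 54.9 ± 12.4 CPM in post-hypoxic SCC154 cells (SD, n = 4) and 78.00 ± 10.04 CPM in non-hypoxic SCC154 cells (SD, n = 5), a log2 fold change of -0.51 that did not pass (adjusted p = 0.194). In FaDu, and for the difference between the lines, 0 genes of any of the 6 lists passed by edgeR. At an unadjusted p of 0.05, 1 of the 20 targets other than ANKRD1 passed in FaDu, against 2.42% of all genes. For the difference 4 of these 20 passed, against 9.78% of all genes.

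Likeness between libraries was measured as the correlation of log2 CPM deviations from the group means over all 18 libraries, among 9666 genes with a mean of at least 10 CPM. It is a description, since the libraries share their lines and normalisation and the genes were picked as the highest. The gene most like CCN1 was JUN, a subunit of AP-1 (Pearson r 0.87, Spearman rho 0.85), followed by TSTD1 (0.85 and 0.86) and KRTCAP3 (0.81 and 0.81). For JUN, r was 0.68 over the 9 SCC154 and 0.95 over the 9 FaDu libraries, and 0.79 without the 2 libraries farthest from the median of JUN. CCN2 was number 1561 on that list (r 0.35, rho 0.34), with r of -0.16 over the 9 SCC154 and 0.50 over the 9 FaDu libraries. The genes most like CCN2 were PRRC1 (r 0.86, rho 0.81), PLEKHA5 (0.82 and 0.75) and HBP1 (0.81 and 0.76). Without the 2 farthest libraries they had r of 0.88, 0.69 and 0.61, and in FaDu these values rest on the few counts of CCN2.

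**Figure D5:**
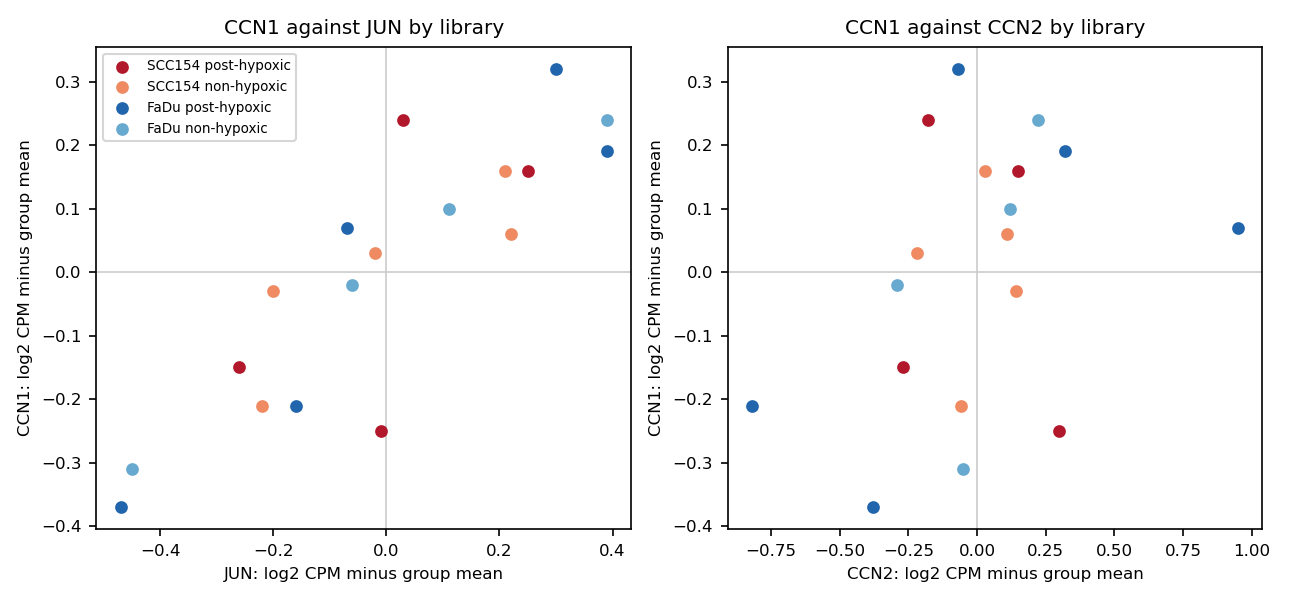
Deviation of log2 CPM from the group mean in each of the 18 libraries, for CCN1 (vertical axes) against JUN (left) and CCN2 (right), coloured by group. CCN1 and JUN move along a line (r 0.87), while CCN1 and CCN2 scatter (r 0.35).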

How the data were processed

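Messenger RNA of 18 libraries was read with the QuantSeq 3′ mRNA-Seq V2 kit, per the labels' protocols. The authors deposited whole-number counts per gene symbol. Per the submitters' processing notes, the tools were HISAT2 2.2.1, featureCounts 1.5.1, UMI-tools 1.1.5, Trimmomatic 0.39 and FastQC 0.11.9, with build hg38; DESeq2 is listed too. The sources used here give neither settings nor order, annotation, strand or how multi-mapped reads were treated, so overlapping genes could not be told apart.

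Groups and replicate numbers came from titles, and columns were matched by the library name in each sample's description. Of 41120 symbols, 22591 had a count and 12291 passed edgeR's filterByExpr. The main test was edgeR 4.0.16 (R 4.3.3, limma 3.58.1) with TMM factors and 1 quasi-likelihood model of 4 group means over 18 libraries, with 14 residual degrees of freedom and a common biological coefficient of variation of 0.148. Calls need a Benjamini-Hochberg adjusted p under 0.05 over all genes tested. It was tested on simulated data first. Alternatives were DESeq2 1.42.0, limma voom, other factors and filters, replicate blocks and libraries left out. The members, the lists and the settings were chosen with earlier results of these data known.

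Replicates of a group differed beyond sampling noise (chi-square per degree of freedom 1.84 to 11.7 over 32 pairs, for genes with a pair count of at least 20). Same-numbered post-hypoxic and non-hypoxic FaDu samples deviated from their group means together (r 0.18 to 0.45 over 4 pairs, against -0.43 to 0.24 for other pairs). A pairing is thus read from the data alone, since the labels give only the number. The main test did not use it, so FaDu fold changes, SEs and adjusted p-values are unpaired unless a replicate block is named.

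Genes named are the 10 members, YAP1, TEAD2 and TEAD3; of each pathway list the called genes with the 4 largest changes and a mean of at least 5 CPM; FJX1, NT5E and NUAK2, as the only lower targets; and the 3 genes most like CCN1 and CCN2 each. Log2 CPM used a prior count of 2. Positions are those of GENCODE v29 (GRCh38), which is hg38, and promoters those of RefSeq (GRCh38.p14).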

Additional observations from a re-analysis of the deposited data

Results flagged for a closer look

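In 2 of the 36 sets of libraries tested (1 gene in 1 group), a single library lay far from the others of its group, where chance alone gives about 1 in 20. TEAD1 had 330.1 CPM in non-hypoxic SCC154 replicate 4, where the other 4 libraries had 385 to 396 CPM. TEAD4 had 5.80 CPM in non-hypoxic SCC154 replicate 2, where the other 4 libraries had 8.24 to 8.88 CPM.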

How the results depend on the processing

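Every setting kept all 7 calls between the lines in both fractions. Of 1235 recomputed values of single genes, 1180 kept direction and side of the threshold, 0 lost a call, 7 gained one and 48 changed sign, all 48 in values that did not pass; the cause was not tested. At this depth CCN2 rested on 2 to 13 counts a library in FaDu, and ANKRD1 and AJUBA on 0.

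In SCC154, the number of the 10 genes called was 1 with DESeq2, limma voom, no filter or the replicate block shared across lines. It was 3 (CCN2, ANKRD1, AJUBA) with the replicate block within each line. Same-numbered SCC154 samples had r of 0.03 to 0.40, against -0.40 to 0.20 for other pairs. Of these, 3 of 4 were highest with their own number, as in FaDu. Whether the numbers pair the SCC154 samples is not given by the labels and was not settled here. All genes called were 201 with DESeq2, 291 with no filter, 22 with only the groups compared, 243 with the shared block, 1052 with the block within each line, 39 without FaDu replicates 3 and 4, and 20 to 190 without 1 library. Pathway list genes called were 4 with DESeq2, limma voom, no filter or the shared block, 0 with only the groups compared, 15 with the block within each line, 1 without FaDu replicates 3 and 4, and 0 to 3 without 1 library.

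In FaDu, all genes called were 3 with DESeq2, 10 with no filter, 7 with the block within each line and 0 to 1 without 1 library. For the difference between the lines they were 19 with DESeq2, 51 with no filter, 5 with the shared block, 224 with the block within each line, 1 without FaDu replicates 1 and 2, and 1 without FaDu replicates 3 and 4; pathway list genes were 1 with DESeq2 and 2 with the block within each line. The block changed no other call of the 10 genes.

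Signs that changed, on the log2 scale, were these. Without FaDu replicates 1 and 2, the FaDu effects of LATS1, WWTR1 and TEAD1 were -0.04, -0.18 and 0.02, the differences of CCN1, LATS1, WWTR1 and TEAD4 were -0.03, 0.12, 0.06 and 0.23, and TEAD4 between the lines was -0.12 in post-hypoxic and -0.35 in non-hypoxic cells. Without FaDu replicates 3 and 4, the FaDu effect of CCN2 was 0.30. Without SCC154 non-hypoxic replicate 1 and post-hypoxic replicate 3, the differences of LATS1 and TEAD4 were 0.06 and 0.24. The difference of LATS1 was 0.00 with the 1 CPM filter, upper-quartile factors or the block within each line, and 0.01 with limma voom or the shared block, and TEAD4 between post-hypoxic lines was -0.00 with limma voom. Without 1 library, FaDu effects ran from -0.01 to 0.17 (CCN1), -0.45 to 0.12 (CCN2), -0.10 to 0.19 (WWTR1) and -0.06 to 0.03 (TEAD1), differences from -0.04 to 0.15 (CCN1), -0.09 to 0.07 (LATS1) and -0.38 to 0.19 (TEAD4), and TEAD4 between the lines from -0.16 to 0.36 in post-hypoxic and -0.07 to 0.49 in non-hypoxic cells. The fit of only the groups compared was not run for the difference, nor the block within each line between the lines.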
